A study of Mus musculus with 6 samples.

Results

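Chemokine ligands are the small secreted proteins that direct the migration of leukocytes. They were taken from the gene table by symbol, as every Ccl, Cxcl, Xcl or Cx3cl gene with a number and at most 1 further letter, together with Pf4 and Ppbp, and 41 of the 23951 genes in the table met this rule. The rule used names and no measured value. The skin came from 3 JunBΔep mice, labelled JunB dep, and from 3 littermate controls, labelled JunB +/+, all C57Bl/6 and 6 to 7 months old. In JunBΔep mice, Junb is deleted where the keratin 5 promoter drives Cre, which is mainly in basal keratinocytes, so immune, vascular and connective tissue cells of the same skin keep the gene. The paper describes the JunBΔep skin as lesional. Whole skin was sequenced without sorting, and in such bulk samples fewer cells of a type and less RNA per cell cannot be told apart. The mice of each genotype are named by their replicate number, 0, 1 or 2, and 3 values given for a group follow the order of replicates 0, 1 and 2. Levels are in FPKM, which are fragments scaled to the length of the transcript and to the number of mapped fragments.

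Chemokines bind G protein-coupled receptors on the cells they attract, and the receptor sets which leukocyte answers. Ligands of CXCR2 draw neutrophils, ligands of CCR1 and CCR2 draw monocytes and macrophages, ligands of CCR3 draw eosinophils, and CCL20 acts through CCR6 on dendritic cells and on T cells that make IL-17. Some members are made in healthy skin all the time, among them CCL27 and CXCL14 from the epithelium and CXCL12 from stromal cells, while many others are induced by inflammatory cytokines.

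Several features of the libraries bear on every comparison. Junb, the targeted gene, was at 59.3, 72.4 and 56.9 FPKM across the controls. The libraries labelled JunBΔep gave 42.8 FPKM for replicate 1, 28.0 FPKM for replicate 2 and, above every control, 129.6 FPKM for replicate 0. Other cells of the skin keep Junb, so its level in whole skin cannot decide whether the label is right. Because that library is above every control for Junb and stands apart in many genes, most fold changes are given below with and without it. In it, Krt14, a keratin of basal keratinocytes, was listed at 0 beside Krt5 at 3725 FPKM, so some zeros may be failed estimates, and a gene with no value is described only as listed at 0. Of 10 keratinocyte markers 6 were above every control in that library, beside 37.4% of all genes. Krt15, at 80.7 FPKM beside 1117 to 2388 FPKM in controls, was below every control there. So was Lor, at 823 FPKM beside 1408 to 3011 FPKM. The tissue label was matched by Krt5 at 1588 FPKM or more in all 6 mice. Genes of mucosal epithelium summed to 3903 FPKM in the library labelled JunBΔep replicate 0 and to 34.1 to 56.7 FPKM in the other 5 libraries. Liver genes summed to 2030 FPKM in control replicate 0 and to 2.48 to 29.7 FPKM elsewhere. All 15 skeletal muscle markers tested had a lower log2 fold change in JunBΔep skin, and 11 of them passed the adjusted test, with sums of 22207 to 31699 FPKM among controls and 2065 to 4999 FPKM among JunBΔep mice. Of these 11 calls, 0 were left with the replicate number or the number series described next as a block, or without JunBΔep replicate 1 or any 1 control, and 4 markers were called without JunBΔep replicate 0. With all 6 mice but no filter on low values, 4 markers were called as well. The part of these features in the chemokine values was not tested. The sample names carry numbers in the 230s for control replicates 0 and 1 and JunBΔep replicate 0, and in the 270s for the other 3 mice. What these numbers mark is not stated.

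Of the 41 chemokine ligands, 6 were listed at 0 in all 6 mice, Ccl19, Ccl21a, Ccl21b, Ccl21c, Ccl27b and Ccl28. Apart from Ccl28 they lie on chromosome 4 in a region of near-identical gene copies, where the assignment of reads is uncertain. Ccl26 had a value, 0.0715 FPKM, in JunBΔep replicate 1 alone. The remaining 34 reached the filter, a 6-mouse mean of 0.1 FPKM or more, and were tested. Of these, Cxcl3, Cxcl5 and Cxcl15 had a control mean under 0.1 FPKM and entered the test only through their level in JunBΔep skin.

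No chemokine ligand passed the test between genotypes. On the log2(FPKM + 0.5) scale, a limma fit over all 17021 tested genes called 0 of the 34 members at an adjusted p below 0.05, where it called 1.38% of all genes, 0 of them higher and 235 lower in JunBΔep skin. That count of all genes was 135 without JunBΔep replicate 0, and it was 0 without JunBΔep replicate 1, without any 1 control, and with either the replicate number or the number series as a block. The adjusted p of the members ran from 0.161 for Ccl24 to 0.986 for Cxcl17. At an unadjusted p below 0.05, which 7.56% of all genes reached in either direction, Ccl20 and Cxcl9 were higher, which is 5.88% of the members beside 1.43% of all genes, and Ccl11 and Ccl24 were lower, again 5.88% of the members, beside 6.13% of all genes. Cxcl2, Cxcl3, Cxcl9 and Ccl25 were higher in all 3 JunBΔep mice than in every control (11.8% of the members, 5.62% of all genes), and Ccl24 was lower without overlap (2.94% of the members, 9.16% of all genes). Cxcl3 had to be higher to be tested at all, so the share of higher members is no result. Among genes with a control mean of 0.1 FPKM or more, 3 of 31 members were higher without overlap (9.68%, beside 5.39% of 16705 genes). For a single gene, the smallest p that an exact two-sided permutation of 3 against 3 mice allows is 0.1. The labels do not say how the mice were housed or their skin processed, and the p-values measure only the spread between these mice.

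The 3 JunBΔep mice did not share 1 chemokine pattern. In the library labelled JunBΔep replicate 0, 20 of the 34 members were above every control (58.8%, beside 37.4% of all genes) and 9 were at least 4-fold above the control mean (26.5%, beside 3.28% of all genes). Those 9 were Cxcl1, Cxcl2, Cxcl3, Cxcl5, Cxcl13, Ccl2, Ccl3, Ccl4 and Ccl7. Because Cxcl3 and Cxcl5 entered the test only through this library, their presence among the 9 was fixed by the filter. Among genes with a control mean of 0.1 FPKM or more, 18 of 31 members were above every control there (58.1%, beside 36.8%) and 7 were at least 4-fold above the control mean (22.6%, beside 2.95%). In the same library 8 members were below every control (23.5%, beside 39.3% of all genes), of which Ccl27a and Xcl1 were at least 4-fold below the control mean (5.88%, beside 4.26%). In JunBΔep replicate 1 the balance was the other way, with 7 members above every control (34.5% of all genes were) and 15 below every control (44.1% of the members, beside 33.1% of all genes). Ccl8 alone was at least 4-fold below the control mean there (2.94%, beside 2.33% of all genes), and no member was 4-fold above it, beside 1.36% of all genes. JunBΔep replicate 2 had 15 members above every control (44.1%, beside 25.1% of all genes) and 6 below (17.6%, beside 21.3%), with Ccl20 and Cxcl15, the latter tested only through its level there, at least 4-fold above the control mean (5.88%, beside 0.629%) and no member 4-fold below it (1.56% of all genes were). Against the control mean the members had a median log2 difference of 0.87, -0.20 and 0.12 in replicates 0, 1 and 2, where the median over all tested genes was -0.02, 0.00 and 0.00.

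Over all 3 mice, 23 of the 34 log2 fold changes were positive (67.6%, beside 53.4% of all genes), with a median of 0.32 beside 0.03 for all genes. With the control mean filter they were 20 of 31 (64.5%, beside 52.6% of 16705 genes) and 0.28. Both values over the 34 members turn on the library labelled JunBΔep replicate 0. Without it, 32 members could be tested, 14 of their log2 fold changes were positive and the median was -0.07, beside 0.03 for all genes. Within the 230s of the sample names, where that library meets 2 controls, the median of the log2 differences was 0.77, and within the 270s, where the other pair of JunBΔep mice meets 1 control, it was 0.05. In the fit without that library, 0 members passed at the adjusted threshold (0.798% of all genes did). At an unadjusted p below 0.05, Cxcl2 and Cxcl9 were then higher (2.03% of all genes) and Ccl8, Ccl24 and Pf4 lower (6.03% of all genes).

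**Figure D1:**
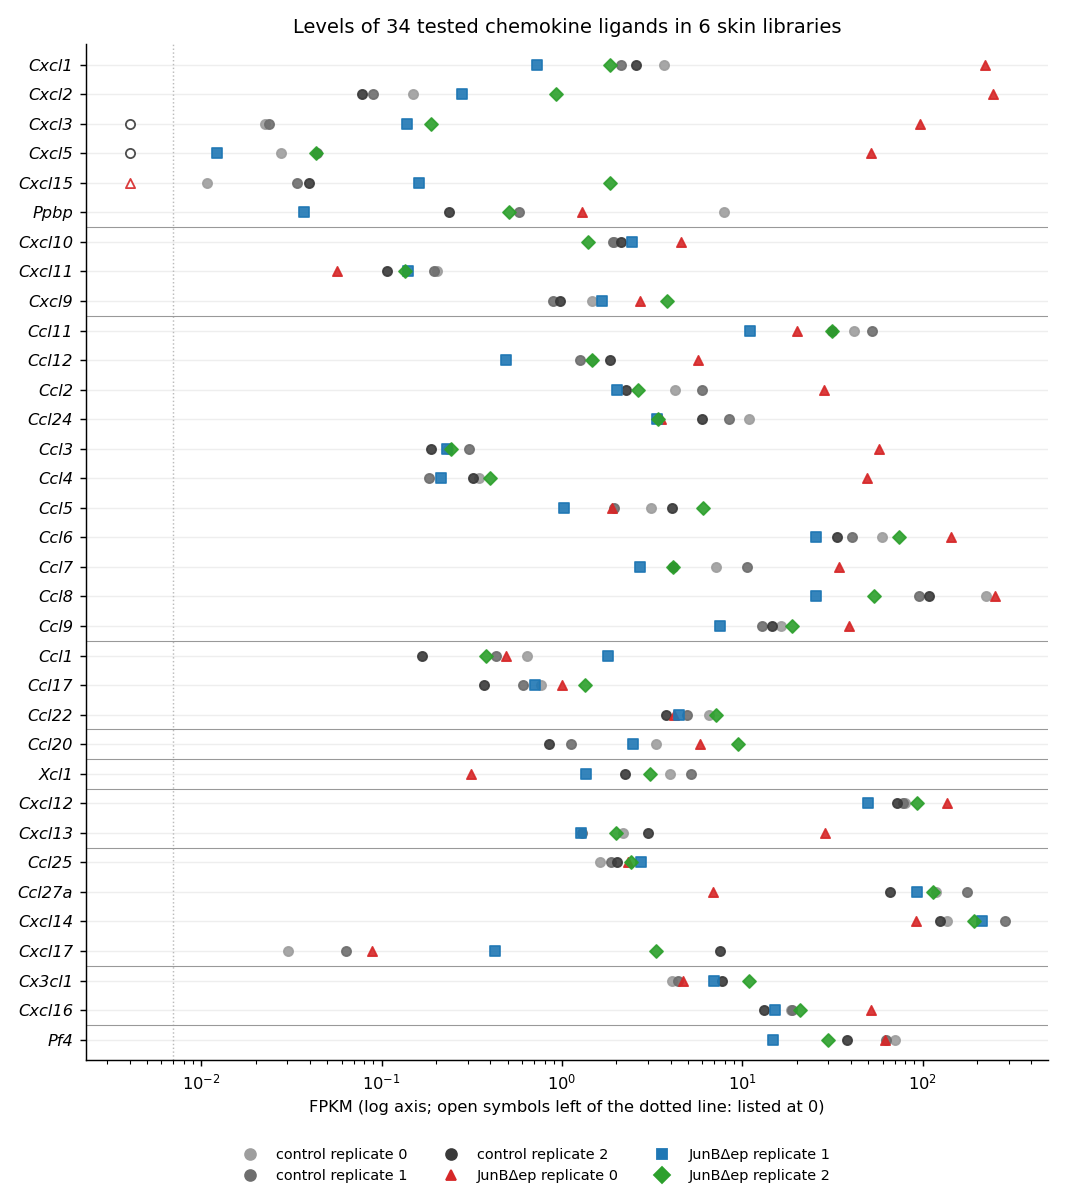
FPKM of each of the 34 tested chemokine ligands on a log axis, with 1 symbol per mouse, controls in greys, the JunBΔep mice as triangle (replicate 0), square (1) and diamond (2), and open symbols at the left for genes listed at 0. The library labelled JunBΔep replicate 0 lies far above the other 5 mice for Cxcl1, Cxcl2, Cxcl3, Cxcl5, Ccl3 and Ccl4, and Ccl24 is lower in all 3 JunBΔep mice than in every control.

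Among the CXCR2 ligands, 4 genes set 1 library apart from the other 5. Cxcl1, an early signal for neutrophils made by many skin cells, was at 3.69, 2.13 and 2.56 FPKM across the controls, against 221, 0.722 and 1.84 FPKM across the JunBΔep mice. The library labelled JunBΔep replicate 0 was thus 79.1 times the control mean, while both other JunBΔep mice were below every control. Its log2 fold change over all mice was 1.41 (standard error, SE, 1.93, adjusted p = 0.806, limma) and it was -0.94 without that library (adjusted p = 0.640, limma). Cxcl2, made by macrophages, neutrophils and keratinocytes and acting on the same receptor, was at 0.149, 0.0890 and 0.0781 FPKM across the controls, against 244, 0.279 and 0.926 FPKM across the JunBΔep mice. Here all 3 JunBΔep mice exceeded every control, replicates 1 and 2 by less than 1 FPKM. The log2 fold change of Cxcl2 was 3.42 (SE 2.14, adjusted p = 0.722, limma), and 0.80 without the library labelled JunBΔep replicate 0 (adjusted p = 0.568, limma).

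Cxcl3, a close relative of Cxcl2, showed 0.0226 and 0.0237 FPKM in control replicates 0 and 1, was listed at 0 in control replicate 2, and reached 96.2, 0.139 and 0.188 FPKM in the JunBΔep mice. The groups did not overlap, although both lower JunBΔep values were under 0.2 FPKM. Cxcl5, a CXCR2 ligand made by epithelial cells, showed 0.0278 and 0.0436 FPKM in control replicates 0 and 1, was listed at 0 in control replicate 2, and gave 51.98, 0.0122 and 0.0433 FPKM in the JunBΔep mice. Outside the library labelled JunBΔep replicate 0 it showed no level above the controls. On the log2(FPKM + 0.5) scale the difference of that library from the control mean was 7.55 for Cxcl3 and 6.65 for Cxcl5, and neither gene had a mean high enough to be tested without it. Cxcl15, a chemokine known mainly from lung, behaved otherwise, since it was listed at 0 in JunBΔep replicate 0, was at 1.85 FPKM in JunBΔep replicate 2 and stayed under 0.2 FPKM in the other 4 mice. Ppbp, the platelet chemokine that acts on CXCR2 once it is cleaved, had its highest value, 7.91 FPKM, in control replicate 0 and ranged from 0.0373 to 1.28 FPKM in the JunBΔep mice. Red blood cell markers were also highest in that control, with a sum of 1785 FPKM beside 43.3 to 482 FPKM in the other 5 mice, and their part in the Ppbp value was not tested.

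The 6 CXCR2 ligands together summed to 11.8, 2.90 and 2.92 FPKM in the controls, to 614 FPKM in the library labelled JunBΔep replicate 0, and to 1.35 and 5.36 FPKM in replicates 1 and 2. Markers of neutrophils, the cells these ligands attract and a source of some of them, were mixed in that library. Of the 12 such markers in the table, none was called by limma, 5 had a positive and 7 a negative log2 fold change over all mice, and the median was -0.38. Of the 7, S100a9 and Elane were listed at 0 in that library. In that library 6 of the 12 were above every control, beside 37.4% of all genes. The marker sum there was 25033 FPKM, beside 40.99 to 1920 FPKM in controls, 29.4 FPKM in JunBΔep replicate 1 and a sum within the control range in replicate 2. S100a8, which keratinocytes make too, gave most of that sum, and its partner S100a9 had no value. The 6 above every control were S100a8, Retnlg, Mmp8, Mmp9, Csf3r and Cxcr2, of which Retnlg was at 418 FPKM beside at most 18.6 FPKM in controls and Mmp8, a collagenase of neutrophil granules, at 25.3 FPKM beside at most 2.85 FPKM. Control replicate 0 was above that library for Mpo, Camp, Ngp and Ltf, but it differed from the other controls in most of these genes. Ngp was at 195, 0.0208 and 0.0182 FPKM across the controls and at 21.6 FPKM in that library, and Camp at 113, 0.0402 and 0.106 FPKM and at 4.37 FPKM. Mpo was at 32.0, 0.00946 and 0.0332 FPKM and at 0.0615 FPKM, and Ltf at 53.4, 0.0703 and 175 FPKM and at 4.66 FPKM. Against control replicates 1 and 2 alone, 9 of the 12 markers were higher in that library than in both. Whether these transcripts came from the same cells was not tested.

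The sequence before the start of Cxcl1, Cxcl2 and Cxcl3, which are 3 of the 4 CXCR2 ligands that were high in 1 library, is shown because it holds a stretch the 3 genes share. No RefSeq window was available for Cxcl5, nor for Ccl2, Ccl4 and Ccl7, which were also high in that library, so these could not be searched. Ccl3, a CC chemokine that was high in the same library, is shown beside Cxcl1, Cxcl2 and Cxcl3 because its window does not hold the shared stretch. Each line gives 120 bases, from 150 to 31 bases before the RefSeq start, read 5′ to 3′ on the strand of the gene from the RefSeq promoter table of GRCm38.p6. An exact match placed them on mm9 at chr5:91320121-91320240 for Cxcl1, chr5:91332775-91332894 for Cxcl2 and chr5:91214977-91215096 for Cxcl3, all on the plus strand, and at chr11:83462911-83463030 on the minus strand for Ccl3. Capitals mark GGGAATTTCCC, the longest run of letters that the windows of Cxcl1, Cxcl2 and Cxcl3 share. It is of the kind bound by NF-kB, and it was singled out after these windows had been read.
Cxcl1: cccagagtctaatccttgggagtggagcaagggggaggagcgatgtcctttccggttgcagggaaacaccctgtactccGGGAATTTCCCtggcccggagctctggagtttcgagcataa
Cxcl2: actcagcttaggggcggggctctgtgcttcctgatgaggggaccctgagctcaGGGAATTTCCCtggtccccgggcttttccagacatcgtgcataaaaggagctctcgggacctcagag
Cxcl3: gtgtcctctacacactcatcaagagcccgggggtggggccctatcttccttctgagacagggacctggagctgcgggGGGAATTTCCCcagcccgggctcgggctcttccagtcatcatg
Ccl3: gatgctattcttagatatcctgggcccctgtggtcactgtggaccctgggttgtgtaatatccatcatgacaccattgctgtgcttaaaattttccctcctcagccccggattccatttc

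The capitals begin 71, 97 and 73 bases before the start in Cxcl1, Cxcl2 and Cxcl3. RefSeq windows were matched by symbol for 29 of the 41 members, and the 250 bases before each start were searched on both strands. The 11 letters were found in those 3 members, 10.3% of the 29, and in 0.0518% of 27025 genes. They were chosen as the run that these 3 windows share, so this share of the members was fixed beforehand and is no result. The shorter form GGGANNTTCC, which the 11 letters contain, was read on either strand. It was found in Ccl1, Cxcl1, Cxcl2, Cxcl3 and Cxcl10, 17.2% of the members and 1.36% of all genes. Its presence in Cxcl1, Cxcl2 and Cxcl3 was fixed in the same way, so this share is no result either. Ccl1 and Cxcl10 hold the shorter form without the 11 letters. The AP-1-type letters TGANTCA, the kind bound by complexes that contain JunB, were found in Ccl9, Ccl27a, Ccl27b, Cxcl10 and Ppbp, 17.2% of the members and 7.82% of all genes. These are matches of letters and not measured binding. Whether the letters bear on the levels was not tested.

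The CXCR3 ligands, which attract T cells and are induced by interferons, differed less. Of the 3, only Cxcl9 was higher in every JunBΔep mouse than in every control. Cxcl9 was at 1.47, 0.896 and 0.975 FPKM across the controls, against 2.69, 1.67 and 3.81 FPKM across the JunBΔep mice. All 3 JunBΔep mice exceeded every control, with the largest value in replicate 2. Its log2 fold change was 0.96 (SE 0.32, unadjusted p = 0.0235, adjusted p = 0.474, limma), and 0.94 without the library labelled JunBΔep replicate 0. Within the 230s and the 270s of the sample names the log2 difference was 0.95 and 1.05. T cell markers, 10 in the table, summed to 23.1 to 50.8 FPKM among controls, against 27.2, 22.3 and 36.4 FPKM across the JunBΔep mice, and their part in the Cxcl9 value was not tested. Cxcl10 ranged from 1.93 to 2.13 FPKM in controls and from 1.39 to 4.59 FPKM in JunBΔep mice. It was above every control in replicates 0 and 1 and below every control in replicate 2. Its log2 fold change of 0.29 was -0.08 without the library labelled JunBΔep replicate 0. Cxcl11 stayed under 0.21 FPKM in every mouse.

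Among the CC chemokines for monocytes and macrophages, Ccl3 and Ccl4, made by activated myeloid and T cells, followed the CXCR2 ligands. Ccl3 was at 0.233, 0.305 and 0.187 FPKM across the controls, against 57.3, 0.230 and 0.242 FPKM across the JunBΔep mice. Ccl4 was at 0.349, 0.183 and 0.320 FPKM across the controls, against 49.2, 0.214 and 0.398 FPKM across the JunBΔep mice. Ccl3 was within the control range in JunBΔep replicates 1 and 2. Ccl4 was so in replicate 1 and slightly above every control in replicate 2. Their log2 fold changes of 2.09 and 2.02 (SE 1.71 and 1.62, adjusted p = 0.722 for both, limma) became -0.01 and 0.04 without the library labelled JunBΔep replicate 0. Ccl2 and Ccl7 bind CCR2, which brings monocytes out of the blood. Ccl2 was at 4.25, 6.01 and 2.26 FPKM across the controls, against 28.3, 2.03 and 2.64 FPKM across the JunBΔep mice, and Ccl7 at 7.17, 10.6 and 4.13 FPKM against 34.4, 2.70 and 4.12 FPKM. Their difference from the control mean was 2.71 and 2.25 in the library labelled JunBΔep replicate 0 and negative in both other JunBΔep mice. Without that library the log2 fold changes, 0.47 and 0.13 over all mice, were -0.65 and -0.93. Ccl12, the nearest relative of Ccl2 in the mouse, ranged from 1.26 to 1.85 FPKM in controls and from 0.489 to 5.67 FPKM in JunBΔep mice.

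Ccl8, a chemokine made mainly by macrophages, was among the most abundant members. Its level was 226, 95.6 and 108 FPKM across the controls, against 250.1, 25.4 and 53.8 FPKM across the JunBΔep mice. The library labelled JunBΔep replicate 0 was above every control and both other JunBΔep mice below every control. The log2 fold change was -0.91 (SE 0.85, adjusted p = 0.732, limma) and -1.83 without that library (unadjusted p = 0.0148, adjusted p = 0.354, limma). Ccl6 and Ccl9, a neighbouring pair of macrophage chemokines that bind CCR1, ordered the 3 JunBΔep mice in the same way, with replicate 0 highest and replicate 1 lowest. Ccl6 was at 59.7, 40.3 and 33.4 FPKM across the controls, against 143, 25.5 and 74.1 FPKM across the JunBΔep mice, and Ccl9 at 16.4, 12.9 and 14.6 FPKM against 39.1, 7.53 and 18.9 FPKM. For both genes JunBΔep replicates 0 and 2 were above every control and replicate 1 below every control, and the log2 fold changes were 0.58 and 0.28 (adjusted p = 0.758 and 0.868, limma). Without the library labelled JunBΔep replicate 0 they were 0.01 and -0.27.

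Most macrophage and monocyte markers had the same order of JunBΔep mice, with replicate 1 lowest for all 12 and replicate 0 highest for 11, the exception being Cd163. The 12 markers in the table summed to 447 to 841 FPKM among controls, against 1026, 188 and 461 FPKM across the JunBΔep mice. None of the 12 passed the test, 11 had a negative log2 fold change, 6 were above every control in the library labelled JunBΔep replicate 0 and 0 were so in the other JunBΔep mice. Of all genes, 37.4%, 34.5% and 25.1% were above every control in JunBΔep replicates 0, 1 and 2. Csf1r, the receptor that macrophages need to survive, was at 18.6 to 38.1 FPKM among controls, against 29.5, 8.35 and 21.6 FPKM across the JunBΔep mice. Their part in the levels of Ccl6, Ccl8 and Ccl9 was not tested. Ccl5, typical of T and NK cells, did not follow this order, with 1.95 to 4.06 FPKM among controls and 1.02 to 6.03 FPKM among JunBΔep mice, highest in replicate 2.

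The eotaxins Ccl11 and Ccl24, which bind CCR3, had negative log2 fold changes with and without the library labelled JunBΔep replicate 0, and did not pass the adjusted test. Ccl26, the third eotaxin, was too low to be tested. Ccl24, on mm9 chromosome 5 from 136045807 to 136048913, was at 10.9, 8.45 and 5.95 FPKM across the controls, against 3.52, 3.38 and 3.43 FPKM across the JunBΔep mice. The 3 JunBΔep values lay within 0.15 FPKM of each other and below every control. Its log2 fold change was -1.14 (SE 0.26, unadjusted p = 0.00410, adjusted p = 0.161, limma), the smallest p of all members, and -1.15 without the library labelled JunBΔep replicate 0 (adjusted p = 0.269, limma). Ccl11 was at 41.5, 52.6 and 31.2 FPKM across the controls, against 20.1, 10.99 and 31.3 FPKM across the JunBΔep mice. The groups overlapped in 1 pair of mice, control replicate 2 and JunBΔep replicate 2. The log2 fold change of Ccl11 was -1.08 (SE 0.41, unadjusted p = 0.0371, adjusted p = 0.585, limma), and -1.11 without that library. Within the 230s and the 270s the log2 difference was -1.33 and -0.73 for Ccl24 and -1.20 and -0.73 for Ccl11. Eosinophil markers summed to 9.41 to 23.8 FPKM among controls, against 3.08, 3.97 and 12.6 FPKM across the JunBΔep mice, and of their 6 tested members 5 had a negative log2 fold change. Epx, eosinophil peroxidase, was listed at 0 in all 3 JunBΔep mice and in control replicate 1, with 0.325 FPKM in control replicate 0 and 0.0236 FPKM in control replicate 2. Their relation to Ccl24 and Ccl11 was not tested.

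Ccl20, the ligand of CCR6, was higher in value without a full separation of the groups. It was at 3.33, 1.12 and 0.846 FPKM across the controls, against 5.81, 2.47 and 9.43 FPKM across the JunBΔep mice. JunBΔep replicates 0 and 2 exceeded every control, replicate 2 more than replicate 0, and replicate 1 lay below control replicate 0. The log2 fold change was 1.49 (SE 0.59, unadjusted p = 0.0434, adjusted p = 0.633, limma), and 1.42 without the library labelled JunBΔep replicate 0. Ccr6, its receptor, was low in every mouse, at 0.101 to 0.480 FPKM among controls and 0.0422 to 0.508 FPKM among JunBΔep mice. The ligands of CCR4 and CCR8, which act on skin-homing and type 2 T cells, overlapped between the groups. Ccl17 ranged from 0.370 to 0.761 FPKM in controls and from 0.706 to 1.35 FPKM in JunBΔep mice, Ccl22 from 3.75 to 6.53 FPKM and from 4.20 to 7.16 FPKM, and Ccl1 from 0.167 to 0.638 FPKM and from 0.378 to 1.80 FPKM. Xcl1, which lymphocytes make to attract cross-presenting dendritic cells, ranged from 2.23 to 5.18 FPKM in controls and from 0.312 FPKM in JunBΔep replicate 0 to 3.09 FPKM in replicate 2.

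The epithelial and stromal chemokines of healthy skin were among the most abundant members in the controls. Ccl27a, the keratinocyte chemokine for skin-homing T cells, was at 119, 176 and 66.0 FPKM across the controls, against 6.85, 92.4 and 114 FPKM across the JunBΔep mice. The library labelled JunBΔep replicate 0 was 3.93 below the control mean on the log2 scale, and both other JunBΔep mice were within the control range. The log2 fold change was -1.39 (SE 1.09, adjusted p = 0.722, limma) and -0.12 without that library. Ccl27b, a near-identical copy, was listed at 0 throughout, so the split of reads between both copies is uncertain. Cxcl14, an epithelial chemokine and the most abundant member in 2 of 3 controls, was at 136, 285 and 125 FPKM across the controls, against 91.3, 213 and 192 FPKM across the JunBΔep mice. Only the library labelled JunBΔep replicate 0 was below every control, and without it the log2 fold change of -0.13 became 0.25. Cxcl17, a mucosal chemokine, was above 1 FPKM in control replicate 2 and JunBΔep replicate 2 only, at 7.48 and 3.30 FPKM. Ccl25, known from gut and thymus, was at 1.62, 1.86 and 2.03 FPKM across the controls, against 2.31, 2.74 and 2.42 FPKM across the JunBΔep mice, higher without overlap but with a log2 fold change of 0.36 (adjusted p = 0.722, limma), and 0.40 without the library labelled JunBΔep replicate 0.

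Cxcl12, the stromal ligand of CXCR4, was at 79.2, 78.1 and 72.1 FPKM across the controls, against 136, 49.6 and 93.3 FPKM across the JunBΔep mice. The controls were close to each other, while the JunBΔep mice lay on both sides of them, and the log2 fold change was 0.16 (adjusted p = 0.884, limma) and -0.17 without replicate 0. Cxcl13, the B cell chemokine of lymphoid follicles, was at 2.18, 1.29 and 2.98 FPKM across the controls, against 28.6, 1.27 and 1.99 FPKM across the JunBΔep mice, a log2 fold change of 0.98 that was -0.28 without the library labelled JunBΔep replicate 0. The transmembrane chemokines, which also work as adhesion molecules, did not pass the test either. Cxcl16 was at 18.5, 18.9 and 13.2 FPKM across the controls, against 51.9, 15.1 and 21.0 FPKM across the JunBΔep mice, and Cx3cl1 at 4.07, 4.42 and 7.70 FPKM against 4.70, 7.00 and 10.9 FPKM. Cxcl16 was highest in replicate 0 and Cx3cl1 in replicate 2, and without replicate 0 their log2 fold changes were 0.10 and 0.70. Pf4, platelet factor 4, was at 70.4, 62.4 and 37.9 FPKM across the controls, against 61.7, 14.7 and 29.7 FPKM across the JunBΔep mice. JunBΔep replicates 1 and 2 were below every control, and without replicate 0 the log2 fold change was -1.37 (unadjusted p = 0.0193, adjusted p = 0.411, limma), beside -0.86 with it. Platelet markers summed to 12.3 to 21.9 FPKM among controls and 15.9 to 22.0 FPKM among JunBΔep mice, and did not show the order of Pf4. The sum of the macrophage and monocyte markers had the order of Pf4 among the JunBΔep mice, and their part was not tested.

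The composition of the chemokine signal differed most in 1 library. All members together summed to 832, 876 and 554 FPKM in the controls, 0.166%, 0.149% and 0.103% of the FPKM of all genes, against 1649, 492 and 696 FPKM across the JunBΔep mice, or 0.262%, 0.102% and 0.139%. In every control the 5 most abundant members were Cxcl14, Ccl8, Ccl27a, Cxcl12 and Pf4, which held 73.9% to 79.5% of the signal. In JunBΔep replicates 1 and 2 Ccl6 stood in place of Pf4. In the library labelled JunBΔep replicate 0 the 5 were Ccl8, Cxcl2, Cxcl1, Ccl6 and Cxcl12. CXCR2 ligands made up 37.3% of its chemokine FPKM, beside 0.331% to 1.42% in controls and 0.274% and 0.769% in the other JunBΔep mice. The epithelial and homeostatic members, mainly Ccl27a and Cxcl14, made up 6.10% there, beside 30.8% to 52.8% in controls and 62.7% and 44.7% in the other JunBΔep mice.

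**Figure D2:**
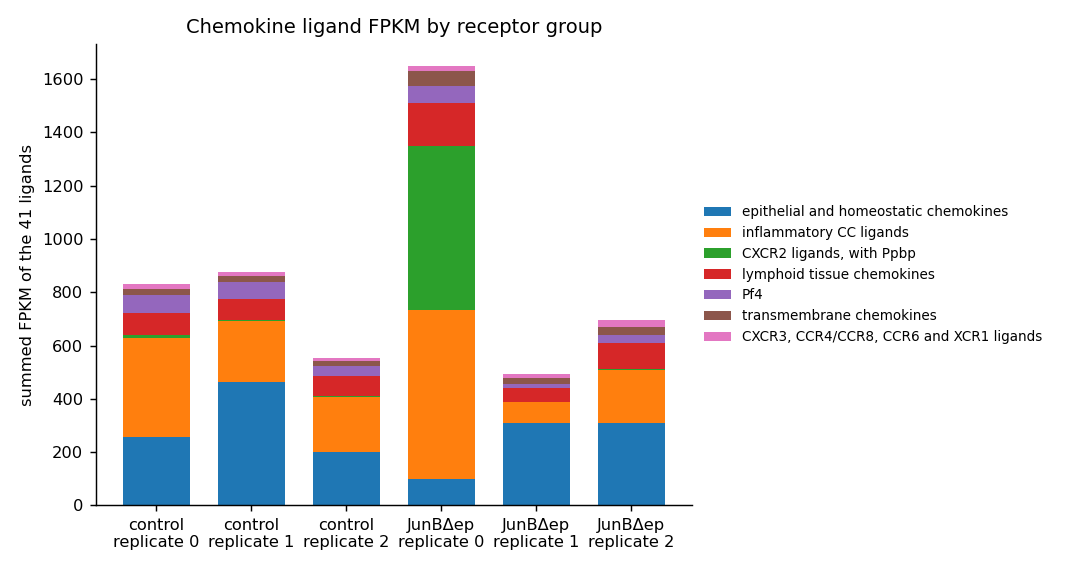
Summed FPKM of the chemokine ligands in each of the 6 mice, as stacked bars from 0 divided by receptor or role, with Ppbp counted among the CXCR2 ligands. The bar of the library labelled JunBΔep replicate 0 reaches 1649 FPKM, 614 FPKM of it from CXCR2 ligands, while the other 5 bars lie between 492 and 876 FPKM.

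Neighbouring genes did not share 1 level. On mm9 the 40 members with a position in GENCODE vM1 lie mainly on chromosome 5, with 13, and on chromosome 11, with 12. On chromosome 5, from 91188325 to 91334935, 7 members follow each other within 146.6 kb in the order Cxcl5, Ppbp, Pf4, Cxcl3, Cxcl15, Cxcl1 and Cxcl2. In the library labelled JunBΔep replicate 0 their log2 differences from the control mean were 6.65, -0.08, 0.17, 7.55, -0.08, 6.10 and 8.66 in that order. The 4 high genes were thus interleaved with 3 that differed from the control mean by 0.17 or less. Of these, Cxcl15 was at 0.0108 to 0.0398 FPKM in controls and listed at 0 there, too low to show whether it stayed level. Ppbp spread from 0.235 to 7.91 FPKM in controls, beside 1.28 FPKM in that library. On chromosome 11, from 81849073 to 82119192, Ccl2, Ccl7, Ccl12 and Ccl8 were at 2.71, 2.25, 1.62 and 0.91 in that library, while Ccl11, between Ccl7 and Ccl12, was below the control mean and Ccl1 at 0.15. In the second chromosome 11 group, from 83339280 to 83478185, Ccl3 and Ccl4 at its end were at 6.29 and 5.99, Ccl9 and Ccl6 at 1.39 and 1.71, and Ccl5 at -0.52. In JunBΔep replicate 1 the values of the 5 genes from Ccl2 to Ccl8 were all negative, from -2.36 to -0.80. Cxcl9, Cxcl10 and Cxcl11, from 92750357 to 92794511 on chromosome 5, differed from the control mean by 0.45, 0.24 and -0.06 in JunBΔep replicate 1, and Cxcl10 and Cxcl11 by 1.03 and -0.26 in the library labelled JunBΔep replicate 0.

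**Figure D3:**
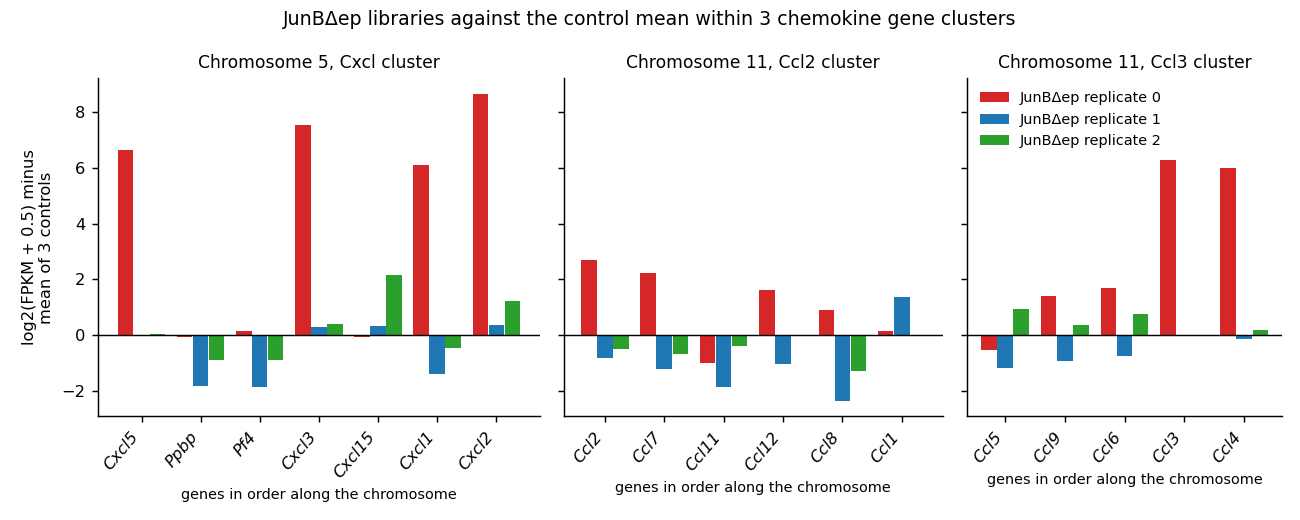
Log2 difference of each clustered chemokine ligand from the control mean, on the log2(FPKM + 0.5) scale, with genes in their order along the chromosome and 1 bar per JunBΔep mouse. In the chromosome 5 group, Cxcl5, Cxcl3, Cxcl1 and Cxcl2 lie between 6.10 and 8.66 in the library labelled JunBΔep replicate 0, and Ppbp, Pf4 and Cxcl15 between -0.08 and 0.17.

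None of the chemokine receptors read passed the test between genotypes. Of 18 signalling chemokine receptors 17 were tested, 0 were called, 8 had a positive and 9 a negative log2 fold change, and the median was -0.02 beside 0.03 for all genes. In the library labelled JunBΔep replicate 0, 10 of the 17 were above every control, beside 37.4% of all genes. Cxcr1 is 1 of the 10 and had a control mean under 0.1 FPKM, so the filter fixed its place. Among the 16 receptors that reached 0.1 FPKM in the control mean, 9 were above every control there, 7 had a positive log2 fold change and the median was -0.05. Cxcr2, the receptor of the neutrophil chemokines, was at 2.45, 1.44 and 1.09 FPKM across the controls, against 22.3, 1.60 and 2.03 FPKM across the JunBΔep mice. Ccr1, which binds Ccl3, Ccl6 and Ccl9, was at 1.41, 0.417 and 0.381 FPKM across the controls, against 21.9, 0.292 and 0.979 FPKM across the JunBΔep mice. Both were high in the same library as their ligands, and near control in the other JunBΔep mice. Ccr2 was at 6.91, 5.07 and 4.43 FPKM across the controls, against 10.3, 1.64 and 5.20 FPKM across the JunBΔep mice.

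Cxcr4, the receptor of Cxcl12, was at 5.72, 2.70 and 5.21 FPKM across the controls, against 17.8, 9.19 and 5.85 FPKM across the JunBΔep mice, higher without overlap (log2 fold change 1.10, adjusted p = 0.673, limma, and 0.70 without the library labelled JunBΔep replicate 0). Ccr7, which guides dendritic cells to lymph nodes, was at 0.373, 0.244 and 0.514 FPKM across the controls, against 1.38, 1.04 and 0.653 FPKM across the JunBΔep mice, also without overlap, and was the only one of these 17 with an unadjusted p below 0.05, at an adjusted p of 0.446 from limma. Without that library its log2 fold change was 0.62 (adjusted p = 0.597, limma). Its ligands Ccl19 and Ccl21a were listed at 0. Of the 16 receptors, 2 were higher without overlap, Cxcr4 and Ccr7, where 5.39% of all genes with the same control mean filter were, and 2 were lower, Ccr3 and Xcr1, where 9.33% were. Ccr3, the receptor of the eotaxins, was at 0.577, 0.177 and 0.0840 FPKM across the controls, against 0.0751, 0.0616 and 0.0365 FPKM across the JunBΔep mice, and was tested only through its level in controls. Xcr1, the receptor of Xcl1, was at 0.284, 0.287 and 0.247 FPKM across the controls, against 0.221, 0.181 and 0.198 FPKM across the JunBΔep mice. Atypical receptors bind chemokines without signalling through G proteins and lower their local amount, and 4 of the 5 tested had a negative log2 fold change, with none called. Ackr2, which takes up inflammatory CC chemokines, was at 7.15, 3.41 and 3.9 FPKM across the controls, against 1.37, 1.27 and 3.36 FPKM across the JunBΔep mice. Its groups did not overlap, by a margin of less than 0.05 FPKM, and the log2 fold change was -1.12 (unadjusted p = 0.0374, adjusted p = 0.588, limma), and -0.96 without that library. Ackr4, which takes up Ccl19, Ccl21 and Ccl25, was at 26.1, 31.4 and 19.6 FPKM across the controls, against 6.37, 11.7 and 21.7 FPKM across the JunBΔep mice, with overlap. Ackr3, which binds Cxcl12, was at 29.2, 29.9 and 26.8 FPKM across the controls, against 51.6, 17.9 and 26.5 FPKM across the JunBΔep mice, with the same order of JunBΔep replicates 0 and 1 as its ligand. Ackr1, on the endothelium of venules, was at 27.7, 27.8 and 18.4 FPKM across the controls, against 18.9, 7.28 and 24.3 FPKM across the JunBΔep mice.

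**Figure D4:**
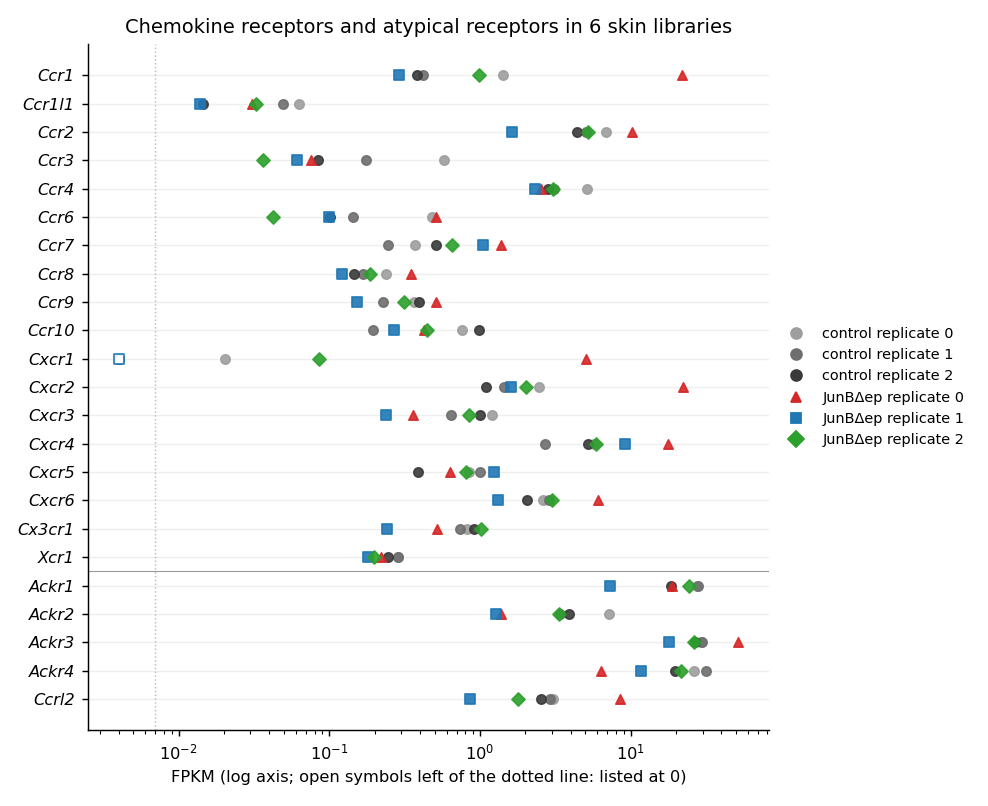
FPKM of chemokine receptors and, under the line, atypical receptors on a log axis, with 1 symbol per mouse and open symbols, which can cover each other, for values listed at 0. Cxcr2 and Ccr1 are high only in the library labelled JunBΔep replicate 0, at 22.3 and 21.9 FPKM, and Ackr2 is lower in all 3 JunBΔep mice than in every control.

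Genes upstream of chemokine induction were read from 2 lists. Of 15 tested cytokines that induce chemokines, 12 had a positive log2 fold change, 0 were called, and 14, 3 and 6 of them were above every control in JunBΔep replicates 0, 1 and 2, beside 37.4%, 34.5% and 25.1% of all genes. Il17a, Il17c and Il17f had control means under 0.1 FPKM and were tested only through their level in JunBΔep skin, so their part in these counts was fixed by the filter. Among the 12 others, 9 log2 fold changes were positive, beside 52.6% of the genes with the same control mean filter. In JunBΔep replicates 0, 1 and 2, 11, 3 and 3 cytokines were above every control, beside 36.8%, 34.1% and 24.7% of those genes. Il1f6, the IL-36 cytokine IL-36α, had the only unadjusted p below 0.05 among them. It was at 1.62, 0.464 and 0.910 FPKM across the controls, against 134, 5.43 and 10.7 FPKM across the JunBΔep mice (log2 fold change 3.86, SE 1.16, unadjusted p = 0.0152, adjusted p = 0.377, limma). Without the library labelled JunBΔep replicate 0 it was 2.52 (SE 0.45, unadjusted p = 0.00244, adjusted p = 0.122, limma). Unlike Cxcl1, Cxcl5, Ccl3 and Ccl4, it exceeded every control in all 3 JunBΔep mice. Il1a and Il1f9 did so too, which makes 3 of the 12 cytokines, beside 5.39% of all genes with the same control mean filter. Of 12 genes of the Myd88 and NF-kB pathway, 10 had a positive log2 fold change, 0 were called, and 10, 3 and 9 were above every control in JunBΔep replicates 0, 1 and 2, where 53.4% of all genes had a positive log2 fold change and 37.4%, 34.5% and 25.1% were above every control. The 3 in replicate 1 are a smaller share than that of all genes. Nfkbia, an inhibitor of NF-kB that NF-kB itself induces, was at 83.3, 120.4 and 86.8 FPKM across the controls, against 226, 107 and 179 FPKM across the JunBΔep mice. Nfkbiz, Tnfaip3 and Rela were higher without overlap, 3 of the 12 beside 5.39% of all genes with the control mean filter. Of these, Nfkbiz, an atypical member of the inhibitor family, was at 11.5, 9.90 and 10.54 FPKM across the controls, against 65.0, 13.1 and 22.2 FPKM across the JunBΔep mice (log2 fold change 1.29, adjusted p = 0.681, limma, and 0.66 without the library labelled JunBΔep replicate 0). In replicate 2, Nfkbia was above every control, as were Cxcl2 and Cxcl3 at under 1 FPKM, while Cxcl1 was below every control.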

How the data were processed

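The authors sequenced poly(A) RNA of whole skin from 6 mice and deposited 1 FPKM value per gene and mouse. The submitters' processing notes name FastQC, TopHat2 2.0.10, Bowtie 1.0.0, SAMtools 0.1.19 and Cufflinks, with the mm9 build. The sources used here do not give the program behind the FPKM values or any scaling between libraries. The authors tested read counts by genotype with DESeq2. Those counts were not analysed here, so depth is unknown and no counting interval is given. All FPKM of a mouse summed to 481078 to 630363.

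Values were compared as log2(FPKM + 0.5), a scale on which changes of low genes are understated, with limma 3.58.1 in R 4.3.3. The fit had genotype as its only term, an intensity trend and 17021 genes, those whose 6-mouse mean reached 0.1 FPKM. Two-sided p-values were adjusted by Benjamini-Hochberg over all genes tested, with a threshold of 0.05. The procedure was tested on simulated data, and no outcome of that test is given here. Summed levels, differences from the control mean and counts without overlap are descriptions with no test, and their background is the same count over all tested genes. At least 4-fold means a difference of 2 or more on that log2 scale.

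The members, lists and marker genes were chosen with earlier results of these data known. Values in every mouse are given for members with at least 10 FPKM in any mouse, no overlap between groups or an unadjusted p below 0.05, and by range for others. Of receptors, cytokines and NF-kB pathway genes, those with an unadjusted p below 0.05 or at least 10 FPKM in any mouse could be named. Ccr3, Ccr6, Cxcr1, Xcr1, Il17a, Il17c and some markers were added after their values were seen. One receptor is not reported here. Gene positions are from GENCODE vM1, promoter windows from RefSeq. Alternatives were pseudocounts of 0.1 and 1, a filter of 1 FPKM or none, median-ratio and quantile scaling, no trend, robust fitting, blocks on the replicate number or the number series of the sample names, and each mouse left out. Python 3.11.15, pandas 2.3.3 and matplotlib 3.10.9 made tables and plots.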

Additional observations from a re-analysis of the deposited data

How the results depend on the processing

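No chemokine ligand was called under any alternative, and the smallest adjusted p of a member with values given was 0.122. The 230 gene values from the 10 alternatives that kept all 6 mice held 0 changes of direction. Sizes moved both ways with the number series as a block. The log2 fold change went from 1.41 to 2.60 for Cxcl1, from 0.47 to 1.20 for Ccl2 and from 0.13 to 0.83 for Ccl7. It went from -0.91 to -0.38 for Ccl8, from -0.86 to -0.47 for Pf4 and from 0.42 to 0.15 for Cx3cl1. Of the 136 gene values with a mouse left out, 10 changed direction, in 8 genes, all 8 of them without JunBΔep replicate 0. These values cover the 23 members with values in every mouse given, and over all 32 members tested without that library 11 changed direction, with Ccl12, Cxcl10 and Cxcl17 besides. With 1 mouse left out the log2 fold change ran from -0.65 to 1.11 for Ccl2, from -0.01 to 3.14 for Ccl3, from -0.93 to 0.79 for Ccl7, from -0.27 to 0.88 for Ccl9, from -0.94 to 2.82 for Cxcl1, from -0.17 to 0.55 for Cxcl12, from -0.28 to 1.74 for Cxcl13 and from -0.35 to 0.25 for Cxcl14. Ccl7 was also negative without control replicate 2 (-0.20), and Cxcl14 positive without control replicate 1 (0.25). The median over the members was 0.29 to 0.50 with all 6 mice, -0.07 to 0.60 with 1 left out, and 0.77 within the 230s of the sample names. The number of positive log2 fold changes, 23, was 14 to 25 with 1 mouse left out, lowest without JunBΔep replicate 0. The number without overlap, 5, was 5 to 12, where smaller groups overlap less by construction. The number of all genes called, 235, was 0 to 254 with 1 mouse left out: 135 without JunBΔep replicate 0, and 0 without JunBΔep replicate 1 or any 1 control. With the block on the number series it was 0. With the replicate block it was 0 as well, with fewer residual degrees of freedom. Same-numbered mice of both genotypes deviated with correlations of 0.12, -0.228 and -0.426, so they share only a number, and not every mouse correlated best with its own number. The depth behind the FPKM values is unknown, so what low levels such as those of Cxcl3, Cxcl5 and Ccl26 can show is limited by a measure not given here.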
